A study of Mus musculus with 19 samples.

Results

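The 6 genes described here encode proteins that bind messenger RNA or build the cytoplasmic granules in which it is stored, moved or broken down: Tdrd7, Caprin2, Celf1, Rbm24, Stau1 and Stau2. They were taken as a named list of post-transcriptional regulators with links to the lens, out of 18194 genes that have a probe set of their own on the array. All 6 have such probe sets, 19 in all, and none of these probe sets also names another gene. All 6 passed the filter on low values that left 13320 genes for testing. A probe set reads 1 transcript with several short probes, and the main probe set of a gene is the one with the highest mean over the arrays.

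Tissue came from wild-type ICR mouse embryos, staged in embryonic days (E) from a plug day set to E0.5. The groups were lens of E10.5, of E11.5 and of E12.5, with 3 arrays per stage, against 4 arrays of whole bodies taken between E10.5 and E12.5. Molar tooth germ of E13.5 had 3 arrays, against 3 of whole bodies taken between E11.5 and E13.5. Each tissue was set against bodies of its own series in order to find genes enriched in the tissue. No group carried a mutation or a treatment. The labels do not say whether arrays of a group came from separate litters, so p-values measure only the spread between these arrays. All 3 lens stages share the same 4 body arrays.

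The lens is a tissue in which control of RNA after transcription has special weight, because its fibre cells fill with crystallin and then lose their nuclei, so that later protein synthesis draws on messages made earlier. Tdrd7 is a Tudor domain protein of cytoplasmic RNA granules, and its loss causes cataract in humans and mice. Caprin2 is a granule protein that binds RNA and the Wnt co-receptor Lrp6. Celf1 binds GU-rich elements, controls splicing, decay and translation, and is needed for a clear lens in mice and fish. Rbm24 controls splicing in heart and skeletal muscle and, in the developing eye, the stability of Sox2 mRNA. Stau1 and Stau2 are the 2 mammalian Staufen proteins, which bind double-stranded RNA and act in mRNA transport and decay.

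In the GRCm38.p6 assembly, Tdrd7 lies at chr4:45965027-46034766, Caprin2 at chr6:148842492-148896257, Celf1 at chr2:90940259-91019497, Rbm24 at chr13:46418102-46431099, Stau1 at chr2:166947549-166996315 and Stau2 at chr1:16228803-16520332. The RefSeq promoter table for this assembly matched 5 of the 6 genes, with 8 windows of 300 bases, each from 250 bases before to 50 after an annotated start. Windows of the 3 genes with the largest lens differences are shown as a description. For Tdrd7 the window is chr4:45972047-45972346 on the plus strand. It was picked from the 3 Tdrd7 windows as the only one with a match to the letters below. For Caprin2 it is chr6:148896188-148896487 on the minus strand, and for Rbm24 chr13:46418050-46418349 on the plus strand. Each reads 5′ to 3′, and capitals mark matches to TGCTGA, the half-site letters of MAF factors, and ACAAAG, the letters bound by SOX factors, on either strand.
Tdrd7: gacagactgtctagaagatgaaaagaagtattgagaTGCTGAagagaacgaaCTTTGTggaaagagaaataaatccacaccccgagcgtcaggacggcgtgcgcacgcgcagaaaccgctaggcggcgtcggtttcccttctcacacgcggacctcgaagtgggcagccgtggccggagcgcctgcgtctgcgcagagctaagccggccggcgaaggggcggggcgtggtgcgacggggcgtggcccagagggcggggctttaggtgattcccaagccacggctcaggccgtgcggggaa
Caprin2: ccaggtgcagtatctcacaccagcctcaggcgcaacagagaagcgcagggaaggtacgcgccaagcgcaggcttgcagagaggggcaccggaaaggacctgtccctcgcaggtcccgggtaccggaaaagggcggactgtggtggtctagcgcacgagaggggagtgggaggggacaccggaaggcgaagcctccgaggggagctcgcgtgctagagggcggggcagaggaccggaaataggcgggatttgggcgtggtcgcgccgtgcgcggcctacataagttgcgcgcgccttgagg
Rbm24: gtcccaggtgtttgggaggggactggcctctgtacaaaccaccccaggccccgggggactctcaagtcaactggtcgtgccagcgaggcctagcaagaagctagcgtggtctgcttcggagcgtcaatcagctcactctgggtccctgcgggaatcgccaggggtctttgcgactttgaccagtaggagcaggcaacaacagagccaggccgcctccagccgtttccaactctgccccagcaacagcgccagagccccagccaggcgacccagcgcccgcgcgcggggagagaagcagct

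The Tdrd7 window held TGCTGA at -214 and CTTTGT, the other strand of ACAAAG, at -198 from the start. The Caprin2 and Rbm24 windows and the other 2 Tdrd7 windows held neither. The Celf1 window (chr2:90940147-90940446, plus strand) held ACAAAG at -165, and 1 of the Stau1 windows (chr2:166964668-166964967, minus strand) held CTTTGT at -23. The heat shock factor letters GAANNTTC, searched because Tdrd7 and Celf1 have been linked to the heat shock protein Hspb1, were in none of the 8. Of all 32851 promoter windows of this length, 19.5% hold the MAF letters, 18.7% the SOX letters and 7.86% the heat shock letters, so the matches are at common letters and are given as a description. The GC content of the windows shown was 63.0% for Tdrd7, 66.7% for Caprin2 and 64.7% for Rbm24.

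Signal intensity was deposited on a linear scale with array medians between 42.5 and 46.5, and all levels and differences below are log2. Arrays of a group correlated at 0.965 to 0.995. The background level was set at 4.71, the 95th percentile of 27 negative control probe sets. The 9 lens markers averaged 10.20, 10.83 and 11.38 in lens over the 3 stages, against 6.10 in the lens-series body. The 7 tooth germ markers averaged 8.72 in tooth germ, against 7.39 in its body arrays. The bacterial spike-in controls split the lens series into 6 arrays with high values (11.14 to 12.46) and 7 with low values (9.59 to 10.30). The high arrays were replicates 1 and 2 of lens E10.5, replicate 1 of E11.5, replicate 1 of E12.5 and body replicates 2 and 3. Each series was split at its own largest gap, so high and low hold only within a series. In the tooth series all tooth germ arrays were high (10.30 to 10.65) and all body arrays low (8.34 to 9.08). Spike-in level and tissue therefore cannot be told apart there.

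Replicate 3 of lens E10.5 stood apart from replicates 1 and 2. Its crystallin Cryaa level was 14.15, against 12.47 and 12.55, and the fibre membrane gene Mip read 10.55, against 8.20 and 8.36. Both levels lay near those of E11.5 lens, while the surface epithelium gene Epcam (9.92) stayed near its 2 partners (10.25 and 10.21). The lens marker Bfsp2 (6.88) also lay nearer its 2 partners (6.35 and 6.25) than the E11.5 arrays (7.45 to 8.37). Replicate 3 is also the only low spike-in array of its stage. Values that use E10.5 are given for all arrays, and also without this one where that changed a call given here or moved a called difference by over 1.5-fold.

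Of the 6 genes, Tdrd7, Caprin2, Rbm24 and Celf1 were higher in lens than in body at each of the 3 stages, and Stau1 and Stau2 were not called at any. A gene is called where limma's adjusted p over the 13320 genes is under 0.05. The share of all tested genes called higher was 13.5% at E10.5, 14.7% at E11.5, then 16.6% at E12.5, and 7.58% were called higher at all 3 stages. In the same 4 genes each lens array exceeded each body array at each stage, as in 17.7%, 15.4% and 19.6% of all genes tested. At E12.5 Tdrd7 ranked 34th, Rbm24 49th, Caprin2 51st and Celf1 935th by the size of the difference. Because tissues were taken in bulk, fewer cells of a type and less RNA per cell cannot be told apart.

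**Figure D1:**
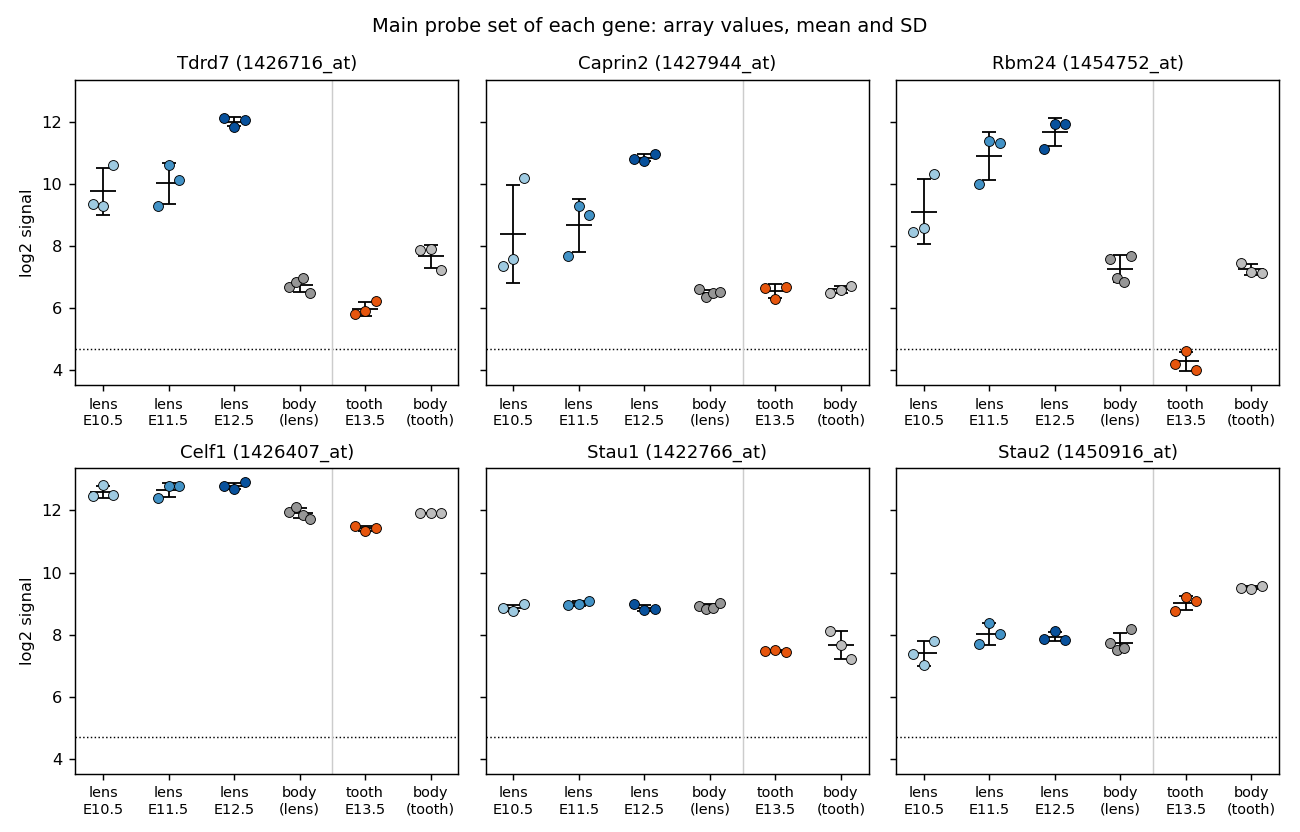
Log2 signal (y axis) of the main probe set of each gene on every array, by group (x axis). Points are arrays, bars the mean and SD, and the dotted line the background level of 4.71. The E12.5 lens arrays of Tdrd7, Caprin2 and Rbm24 lie at 10.74 or above, while no body array exceeds 7.92 for these genes. Stau1 and Stau2 differ more between the 2 series than between lens and body.

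Among the granule proteins, Tdrd7 had the largest difference. The main probe set read 9.36, 9.30 and 10.61 in lens at E10.5, 9.30, 10.62 and 10.14 at E11.5, then 12.11, 11.84 and 12.05 at E12.5, against 6.67, 6.86, 6.97 and 6.50 in body. All lens arrays lay above all body arrays, and the 3 arrays of E12.5 lay above those of both earlier stages. Lens minus body was 3.01 ± 0.30 at E10.5 (SE; 8.05-fold; limma, adjusted p = 1.12e-07) and 3.27 ± 0.30 at E11.5 (9.64-fold; adjusted p = 3.61e-08). The difference at E12.5 was 38.1-fold (adjusted p = 3.14e-11). Without replicate 3 the E10.5 value was 2.58 (adjusted p = 4.41e-07).

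Between stages Tdrd7 rose late. E12.5 minus E11.5 was 1.98 ± 0.32 (adjusted p = 0.000645), whereas E11.5 minus E10.5 was 0.26 (95% interval -0.40 to 0.93; adjusted p = 0.747). The 2 early stages overlapped. The order of levels was thus lens E12.5, then lens E11.5 and E10.5, which did not differ beyond their spread, and then body. A second, dim probe set of Tdrd7 read 4.79 ± 0.68, 4.61 ± 0.25 and 5.78 ± 0.57 in lens over the 3 stages (SD, n = 3 each), against 3.91 ± 0.13 in body (n = 4). Its differences were 0.87, 0.69 and 1.86, called at E10.5 and E12.5 and not at E11.5 (adjusted p = 0.0626). The E10.5 call was lost without replicate 3 (0.51; adjusted p = 0.165), and the body level was below background. It was also higher at E12.5 than at E11.5, with 1.17 for E12.5 minus E11.5 (adjusted p = 0.0245 over all 34945 probe sets that name 1 gene, of which 1.67% were called higher).

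Caprin2 has 1 probe set. It read 7.37, 7.59 and 10.20 in lens at E10.5, 7.69, 9.31 and 9.01 at E11.5, then 10.82, 10.74 and 10.96 at E12.5, against 6.61, 6.35, 6.48 and 6.52 in body. The body arrays were tight and below every lens array, while replicate 3 of E10.5 and replicate 1 of E11.5 stood 2 log2 units or more and 1 unit or more from the rest of their groups. Lens minus body was 1.90 ± 0.46 at E10.5 (adjusted p = 0.00338), 2.18 ± 0.46 at E11.5 (adjusted p = 0.000969) and 4.35 ± 0.46 at E12.5 (20.4-fold; adjusted p = 2.6e-07). The E10.5 difference was 0.99 without replicate 3, and remained past the threshold (adjusted p = 0.0132).

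The last step of Caprin2, E12.5 minus E11.5, was 2.17 ± 0.50 (adjusted p = 0.0107) with no overlap between the stages. It missed the threshold by a narrow margin without replicate 1 of E11.5 (1.68; adjusted p = 0.0502) or without replicate 3 of E12.5 (2.11; adjusted p = 0.0507). The first step, E11.5 minus E10.5, was 0.28 with all arrays (adjusted p = 0.837) and 1.19 without replicate 3 of E10.5 (adjusted p = 0.0264). Within the low spike-in arrays, where that replicate is the only E10.5 array, it was -1.04. With 1 array left out at a time this early step ran from -0.23 to 1.19, so its direction depends on which arrays are used.

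Tdrd7 and Caprin2 were read together on the lens arrays with Rbm24 and the fibre genes Cryaa and Mip. In all 5 genes replicate 3 was the highest array of E10.5 and replicate 1 the lowest of E11.5. Those positions follow the spike-in level at these 2 stages, where low spike-in arrays read higher. At E12.5 Tdrd7, Caprin2, Cryaa and Mip showed no such order. With spike-in level as a block, lens minus body over the 3 stages was 3.07, 3.21 and 5.19 for Tdrd7 and 2.06, 2.01 and 4.19 for Caprin2. For Rbm24 the blocked values were 2.03, 3.44 and 4.21. Within the high arrays the E10.5 differences were 2.42 for Tdrd7, 1.06 for Caprin2 and 1.61 for Rbm24, and within the low arrays, where E10.5 has only replicate 3, 4.03, 3.63 and 2.67. Over all genes tested, deviations of lens-series arrays from their group means correlated at a median of 0.33 between arrays of the same spike-in level in different groups (-0.04 to 0.64, 31 pairs). Between arrays of unlike level the median was -0.31 (-0.60 to 0.14, 32 pairs).

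**Figure D2:**
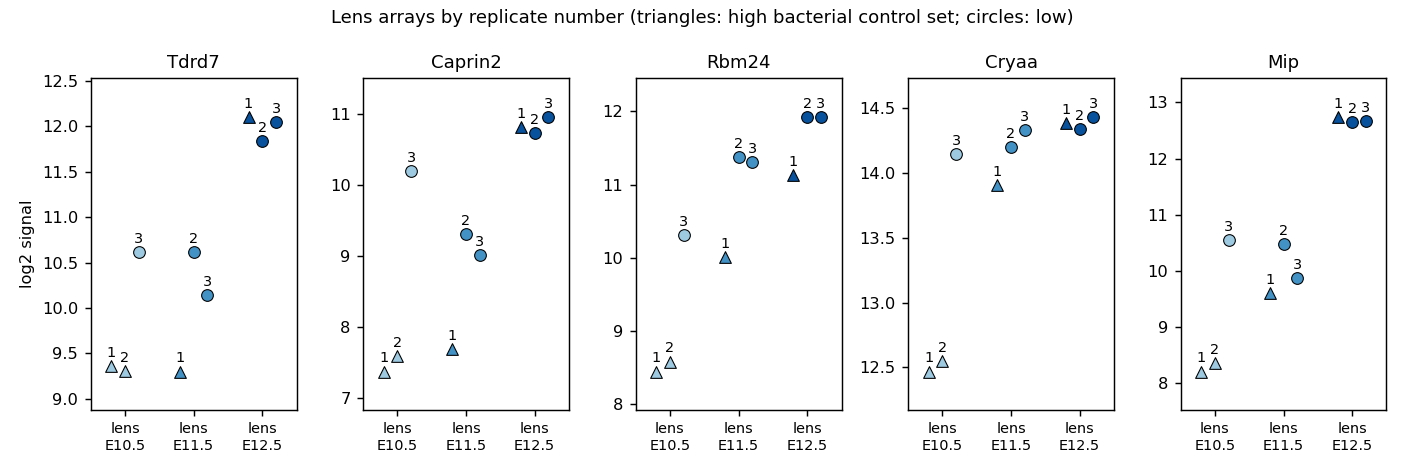
Log2 signal (y axis, a separate scale in each panel) of Tdrd7, Caprin2, Rbm24, Cryaa and Mip on each lens array by stage (x axis), with the replicate number above each point. Triangles are arrays with high spike-in controls and circles those with low ones. Replicate 3 at E10.5 and replicate 1 at E11.5 lie away from their groups in the first 4 panels.

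Among the RNA-binding regulators, Rbm24 rose between E10.5 and E11.5. Its main probe set read 8.45, 8.58 and 10.31 in lens at E10.5, 10.01, 11.37 and 11.31 at E11.5, then 11.14, 11.92 and 11.93 at E12.5, against 7.58, 6.97, 6.84 and 7.69 in body. Each lens array exceeded each body array, and neighbouring stages overlapped. Lens minus body was 1.84 ± 0.39 at E10.5 (adjusted p = 0.000949), 3.63 ± 0.39 at E11.5 (adjusted p = 3.68e-07) and 4.39 ± 0.39 at E12.5 (21.0-fold; adjusted p = 2.02e-08). Without replicate 3 the E10.5 difference was 1.24 (adjusted p = 0.00818).

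The step of Rbm24 from the first stage, E11.5 minus E10.5, was 1.78 ± 0.42 (3.44-fold; adjusted p = 0.017), the 15th largest of all genes tested. By main probe sets it was the only one of the 6 genes called in this step, where 1.52% of all genes were called higher. The call was lost when replicate 1 or 2 of E10.5 or replicate 2 or 3 of E11.5 was left out (1.45 to 1.58; adjusted p = 0.0727 to 0.13), and strengthened to 2.38 (adjusted p = 0.000404) without replicate 3 of E10.5. E12.5 minus E11.5 was 0.76 (95% interval -0.11 to 1.63; adjusted p = 0.373). The same difference was called with spike-in level as a block (adjusted p = 0.017). In lens from E10.5 to E11.5, the median change was 0.86 in lens markers and -1.01 in surface ectoderm markers. It was 0.68 in mesenchyme markers and 0.90 in the 4 pigment and optic vesicle markers tested. The part of tissue make-up in the Rbm24 step was not tested.

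Other Rbm24 probe sets gave the same picture where they were bright. One read 8.08 ± 0.79, 9.64 ± 0.71 and 10.53 ± 0.16 in lens over the 3 stages (SD, n = 3 each), against 6.07 ± 0.12 in body (n = 4), with differences of 2.01, 3.57 and 4.46. Another read 7.16 ± 0.14, 8.77 ± 0.44 and 9.32 ± 0.31, against 5.03 ± 0.28 in body, with differences of 2.13, 3.74 and 4.29. In that set replicate 3 of E10.5 (7.27) lay close to replicate 1 (7.20), and E11.5 minus E10.5 was 1.61 (adjusted p = 0.000253) with no overlap, where 0.793% of probe sets were called higher. The remaining 2 sets lay between 4.05 and 5.48 in group means of the lens series, near background, and were called higher at E11.5 and E12.5.

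Rbm24 is known from muscle, so muscle markers were read beside it. The 14 muscle markers averaged 4.73, 4.89 and 4.97 in lens over the 3 stages, against 8.42 in body, and 7, 6 and 6 of the 14 were at or below background in lens. The heart and skeletal muscle actin Actc1 read 4.65 to 5.45 on the lens arrays, against 12.54 to 13.07 in body. High Rbm24 in lens thus stood beside muscle markers at or near background, and the body level of Rbm24 stood beside high muscle markers, whose part in that level was not tested.

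The main probe set of Celf1 was high in every group. It read 12.47, 12.83 and 12.50 in lens at E10.5, 12.41, 12.78 and 12.80 at E11.5, then 12.77, 12.71 and 12.91 at E12.5, against 11.96, 12.12, 11.84 and 11.74 in body. All lens arrays lay above all body arrays, and the 3 stages overlapped. Lens minus body was 0.69 ± 0.13, 0.75 ± 0.13 and 0.88 ± 0.13 at the 3 stages (adjusted p = 0.000416, 0.000156 and 2.01e-05). Within the high spike-in arrays, which hold 1 array of E11.5, the E11.5 difference was 0.43. The lens values are above 12, where only 1.25% of all values on the arrays lie.

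The other 4 probe sets of Celf1 gave larger differences from body, all called at each stage in a fit of every probe set that names 1 gene, where 10.9%, 11% and 12.5% were called higher. The one with the largest difference read 11.46, 11.65 and 11.79 in lens at E10.5, 12.23, 12.34 and 12.27 at E11.5, then 12.62, 12.61 and 12.71 at E12.5, against 8.67, 8.25, 8.76 and 8.71 in body. Its 4 groups did not overlap and stood in the order of stage. Its lens minus body differences were 3.03, 3.68 and 4.05 (adjusted p = 3.22e-12, 2.17e-13 and 4.52e-14). The remaining 3 sets gave 1.35 to 2.01 at E10.5, 1.82 to 2.67 at E11.5, then 1.78 to 3.03 at E12.5. Probe sets of 1 gene can read different transcript forms or ends, and which forms these read was not tested.

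Those sets also showed a change with stage that the main set did not. E12.5 minus E10.5 was 0.19 in the main set (95% interval -0.10 to 0.49; adjusted p = 0.383). It was 1.01, 1.02 and 1.28 in 3 of the others (adjusted p = 7.33e-05, 0.00142 and 0.00171, in a comparison where 5.81% of probe sets were called higher) and 0.43 in the fourth (adjusted p = 0.121). Over the mean of the 5 sets it was 0.79 (adjusted p = 6.57e-05). The first step, E11.5 minus E10.5, was not called in the main set (0.064; adjusted p = 0.88). It was called in 1 other set (0.65; adjusted p = 0.021, where 0.793% of probe sets were called higher). The mean of the 5 sets was also called in this step (0.52; adjusted p = 0.0126).

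**Figure D3:**
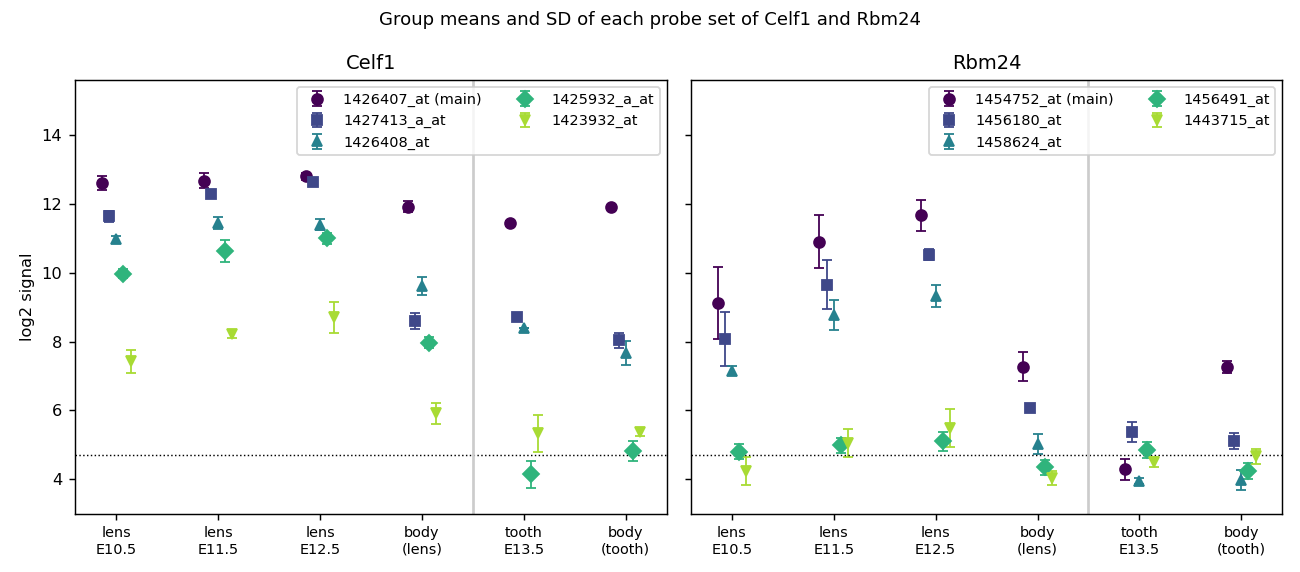
Group means with SD (bars) of every probe set of Celf1 and Rbm24 (symbols), as log2 signal (y axis) by group (x axis). The vertical line parts the 2 series and the dotted line is the background level of 4.71. The main Celf1 set stays between 11.43 and 12.80, while another Celf1 set lies at 7.96 in the lens-series body and 4.82 in the tooth-series body.

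Over the whole lens period, E12.5 minus E10.5, 3 of the 6 genes were called higher and none lower, where 8.91% of all genes were called higher. They were Rbm24 with 2.55 ± 0.42 (adjusted p = 0.000146), Caprin2 with 2.45 ± 0.50 (adjusted p = 0.00116) and Tdrd7 with 2.24 ± 0.32 (adjusted p = 3.39e-05). Without replicate 3 of E10.5 the values were 3.15 for Rbm24, 3.36 for Caprin2 and 2.67 for Tdrd7, all called. Within the high spike-in arrays, with 1 array of E12.5, they were 2.62, 3.34 and 2.78, and within the low ones, with replicate 3 as the only E10.5 array, 1.62, 0.66 and 1.33. Stau2 was not called with all arrays (0.54; adjusted p = 0.0829) and was called without that replicate (0.75; adjusted p = 0.0213). In the second step alone, E12.5 minus E11.5, Caprin2 and Tdrd7 were called higher, 28th and 41st of all genes tested, where 3.02% were called higher. Surface ectoderm markers fell over the same period, with the mean of 12 genes at 5.72 in E12.5 lens, against 7.65 in E10.5 lens, and lens markers averaged 11.38, against 10.20. The part of these changes in the make-up of the tissue was not tested.

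The Staufen genes did not follow the other 4. Stau1 read 8.86, 8.77 and 8.98 in lens at E10.5, 8.96, 8.98 and 9.10 at E11.5, then 8.98, 8.81 and 8.83 at E12.5, against 8.94, 8.84, 8.85 and 9.01 in body. Lens and body arrays were mixed. Lens minus body was -0.04 (95% interval -0.36 to 0.28), 0.10 (-0.22 to 0.42) and -0.04 (-0.36 to 0.29), with adjusted p of 0.878, 0.651 and 0.873. The other 2 Stau1 sets were not called at any lens stage either. In 1 of them every lens array of E11.5 and E12.5 lay below every body array. Its differences there were -0.41 and -0.40 (adjusted p = 0.0567 and 0.056).

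Stau2 gave different answers by probe set. The main set read 7.38, 7.02 and 7.81 in lens at E10.5, 7.69, 8.40 and 8.02 at E11.5, then 7.88, 8.12 and 7.85 at E12.5, against 7.74, 7.50, 7.57 and 8.20 in body. The groups overlapped and no stage was called, with differences of -0.35, 0.28 and 0.19 (adjusted p = 0.213, 0.298 and 0.472). Its E11.5 minus E10.5 value of 0.63 was not called with all arrays (adjusted p = 0.12) and was called without replicate 3 of E10.5 (0.84; adjusted p = 0.0333) or without replicate 1 of E11.5 (0.81; adjusted p = 0.0407).

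Another Stau2 set read 5.95, 5.81 and 5.79 in lens at E10.5, 4.62, 5.93 and 5.68 at E11.5, then 5.14, 6.09 and 5.85 at E12.5, against 7.22, 7.05, 6.99 and 6.71 in body. Every lens array lay below every body array. Its differences were -1.14, -1.59 and -1.30 (adjusted p = 0.00175, 6.93e-05 and 0.000414), in a fit where 12.9%, 13.9% and 16.8% of probe sets were called lower. The third set was called lower at E11.5 alone (-0.83; adjusted p = 0.0343). Stau2 is known from neurons, and the 14 neuron markers averaged 4.43 to 4.45 in lens, against 9.28 in body, with 8 or 9 of the 14 at or below background in lens. Their part in the body level of Stau2 was not tested.

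**Figure D4:**
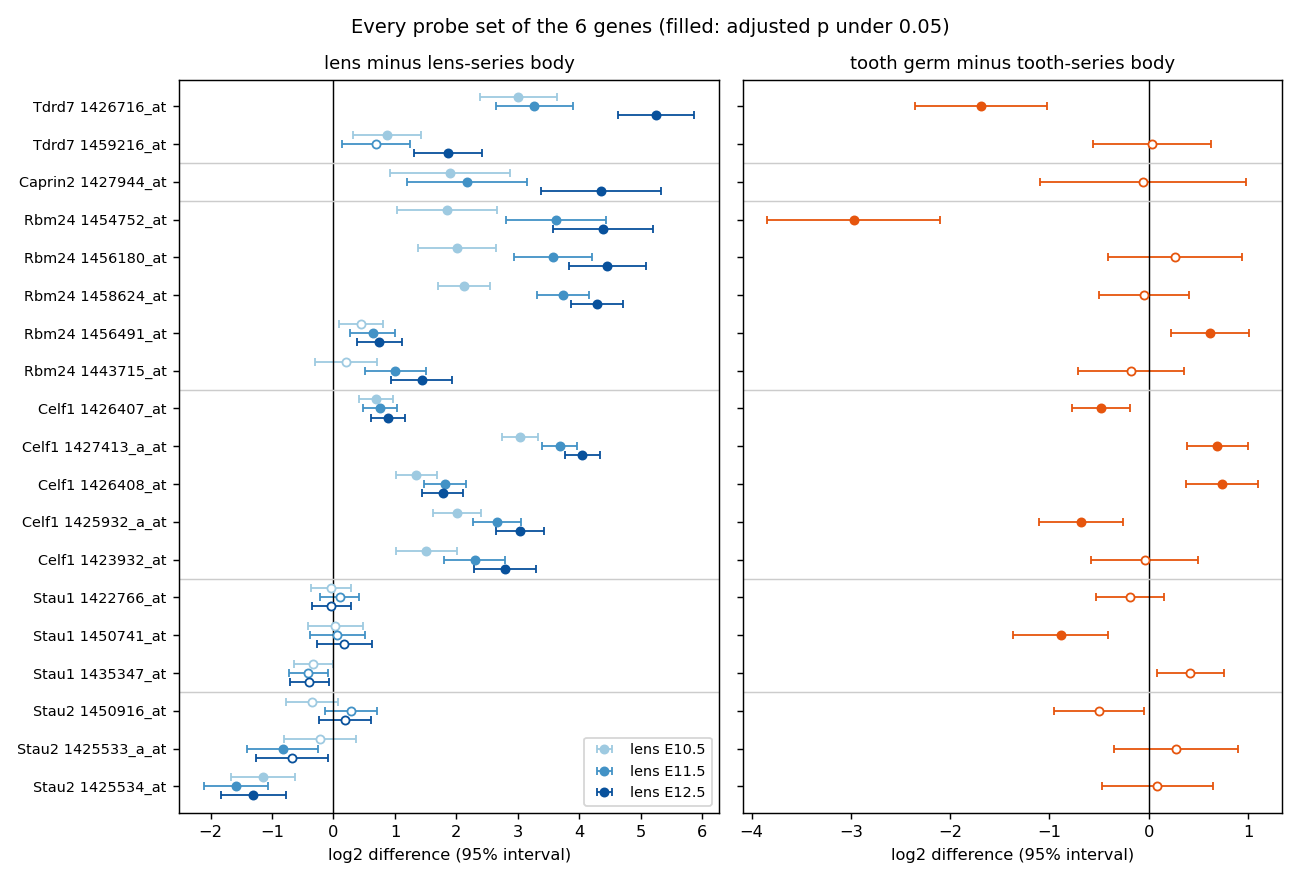
Log2 difference (x axis, with 95% interval) of each of the 19 probe sets (y axis), for lens minus body at 3 stages (left) and tooth germ minus body (right). Filled points have an adjusted p under 0.05 over all probe sets that name 1 gene. The sets of Tdrd7, Caprin2, Rbm24 and Celf1 lie right of 0 in lens, those of Stau2 fall on both sides, and in tooth germ the sets of 1 gene disagree.

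Tooth germ served as a second organ. RNA controls differed between the series and have to be read with these values. The 3′ minus 5′ signal of the actin control was 4.22 to 5.05 in the tooth series, against 0.21 to 0.48 in the lens series. For Gapdh it was 2.82 to 3.13 in tooth germ and 3.84 to 4.08 in its body arrays, against -0.10 to 0.05 in the lens series. For actin it was 4.78 to 5.05 in tooth germ, against 4.22 to 4.47 in its bodies, so tooth germ was higher in actin and lower in Gapdh. The part of these controls in the results was not tested.

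Relative to body, 3 of the 6 genes were called lower in tooth germ and none higher, where 25.3% of all genes were called lower, a share that leaves little to read from the count. Tdrd7 read 5.80, 5.92 and 6.24 in tooth germ, against 7.86, 7.92 and 7.24 in body, with no overlap (-1.69 ± 0.32; adjusted p = 0.000296). Rbm24 read 4.21, 4.63 and 4.03 in tooth germ, all below background, against 7.46, 7.17 and 7.14 in body (-2.97 ± 0.42; adjusted p = 1.33e-05). The muscle markers averaged 4.75 in tooth germ, against 7.67 in its bodies, and their part in the Rbm24 difference was not tested.

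Celf1 read 11.51, 11.34 and 11.44 in tooth germ, against 11.91, 11.91 and 11.90 in body (-0.48 ± 0.14; adjusted p = 0.0105). That call was lost when arrays were centred on their median (-0.33; adjusted p = 0.0691) or quantile normalized (-0.36; adjusted p = 0.0502). Over the main probe sets of the genes tested, the array median was on average 0.15 lower in tooth germ than in body. Caprin2 read 6.67, 6.30 and 6.69 in tooth germ, against 6.50, 6.60 and 6.73 in body, and the groups overlapped (-0.06, 95% interval -1.10 to 0.98). Stau1 (-0.19; adjusted p = 0.381) and Stau2 (-0.50; adjusted p = 0.0713) were not called with all arrays. Stau1 was called without body replicate 3 (-0.42; adjusted p = 0.0243), and both with array weights (-0.36 and -0.46; adjusted p = 0.0359 and 0.0378). Stau2 was also called with only the arrays compared (-0.50; adjusted p = 0.0223) and with an offset of 50 (-0.46; adjusted p = 0.0407).

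Other probe sets of Celf1 gave both directions. Of the other 4, 2 were called higher in tooth germ (0.69 and 0.74), 1 lower (-0.68, with its tooth germ mean of 4.14 below background) and 1 not called (-0.04), where 14.2% of all probe sets were called higher and 17.1% lower. Of the other 2 Stau1 sets, 1 was called lower (-0.88; adjusted p = 0.00592) and 1 was not called (0.42; adjusted p = 0.0559), and the other 2 Stau2 sets were not called (0.28 and 0.09). The second Tdrd7 set (3.85 in tooth germ, against 3.82 in body) and 2 of the other Rbm24 sets lay below background in both groups and give no direction. Of the remaining 2 Rbm24 sets, 1 was called higher (0.62, with 4.85 in tooth germ, against 4.24 in body, below background) and 1 was not called (0.26).

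The lens difference at E12.5 exceeded the tooth germ difference for Tdrd7 (6.94 ± 0.43; adjusted p = 5.41e-10), Rbm24 (7.36 ± 0.57; adjusted p = 8.87e-09), Caprin2 (4.41 ± 0.68; adjusted p = 4.07e-05) and Celf1 (1.36 ± 0.19; adjusted p = 1.77e-05), where 19.2% of all genes were called in that direction. These are values of the main sets. Other sets gave 0.13 to 4.34 for Rbm24, the lowest not called (adjusted p = 0.767). They gave 1.83 for Tdrd7 and 1.04 to 3.72 for Celf1. For Stau1 the value was 0.15 (95% interval -0.32 to 0.62) in the main set, while the other 2 sets were called in opposite directions (1.06 and -0.82; adjusted p = 0.0153 and 0.00912). For Stau2 it was 0.69 (0.07 to 1.31; adjusted p = 0.0707). The Stau2 value was called without body replicate 4 of the lens series (0.84; adjusted p = 0.0238). It was also called with the replicate number as a block (0.84; adjusted p = 0.0278), a fit in which that array, the only one with its number, carries no weight. The call was made under 5 further settings (0.62 to 0.69; adjusted p = 0.0301 to 0.0486), whereas another Stau2 set gave -1.39 (adjusted p = 0.00731).

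The 2 sets of bodies did not read alike, and 63.6% of all genes were called between them. Stau1 was lower in the tooth-series bodies (8.12, 7.69 and 7.22, against 8.94, 8.84, 8.85 and 9.01; -1.24 ± 0.15; adjusted p = 1.16e-06). Stau2 was higher there (9.51, 9.48 and 9.57, against 7.74, 7.50, 7.57 and 8.20; 1.77 ± 0.20; adjusted p = 3.96e-07), and so was Tdrd7 (0.93 ± 0.30; adjusted p = 0.0108), the last not past the threshold without replicate 2 of those bodies (0.80; adjusted p = 0.0517). Other sets of Stau1 (0.82) and Stau2 (-1.36) went the other way. The main Celf1 set was not called (-0.0043), while 3 others were called lower in the tooth-series bodies (-3.14, -1.96 and -0.57). The main Rbm24 set was not called either (-0.013). Of its other sets, 2 were called lower there (-0.96 and -1.04) and 1 higher (0.62, below background in both body groups). Series, RNA control and body stage cannot be told apart in these values.

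Genes whose pattern was most like each member were listed by Pearson's r of log2 values over the 19 arrays, which share tissues and series, so r is a description. For Tdrd7 they were Vit, the RNA Prox1os of the Prox1 locus, and Cela1 (r = 0.98 each). For Caprin2 they were the connexin-like Gje1 (0.99), the fibre membrane gene Lim2 (0.97) and the crystallin Crygd (0.97). For Celf1 they were the crystallin Cryab, Gask1b and Cdh4 (0.96 each), and for Rbm24 the transcription factor Sox1, the Wnt inhibitor Sfrp1, and Nap1l1 (0.98 each).

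Caprin2's nearest gene, Gje1, averaged 6.39, 8.34 and 11.73 in lens over the 3 stages, against 2.82 in body, and Lim2 averaged 9.07, 11.07 and 13.00, against 6.22. Sox1, the nearest of Rbm24, averaged 8.98, 9.84 and 10.36, against 6.02. For Stau1 the nearest were Coro1c, Tubgcp2 and Ppp1r14b (0.98 each), and for Stau2 Srp72, Ggnbp2 (0.96 each) and Enox2 (0.95). Their means split by series, with Coro1c at 9.33 to 9.54 in lens and 9.36 in its bodies, but 5.14 in tooth germ and 5.62 in its bodies.

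The wider machinery of post-transcriptional control was counted in lists, at E12.5 minus body, beside a median of -0.05 over all genes tested, of which 16.6% were called higher and 26.7% lower. Of 19 Tudor domain and germ granule genes other than Tdrd7, 18 had a probe set and 6 were tested, since 12, such as Ddx4 and Piwil2, did not pass the filter on low values. Of the 6, 2 were called higher and 1 lower. Tdrd9, a Tudor domain helicase of germ cells, averaged 5.93 ± 0.31 in lens, against 4.90 ± 0.09 in body (1.03 ± 0.22; adjusted p = 0.000624). Tdrkh, a mitochondrial Tudor protein, was also higher (0.76 ± 0.23; adjusted p = 0.0105), though not without replicate 1 of E12.5 (0.64; adjusted p = 0.058), and Akap1, a mitochondrial anchor protein, was lower (-0.69 ± 0.17; adjusted p = 0.00231).

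Of 23 stress granule genes tested, 5 were higher and 5 lower, with a median of 0.11. Usp10, a deubiquitinase that binds the stress granule core protein G3bp1, was higher at each stage (0.65, 0.92 and 1.28; adjusted p = 0.000915, 2.33e-05 and 2.63e-07). Taf15, an RNA-binding protein of the FET family, was higher by 2.91, 2.11 and 1.55, with its body level of 3.97 below background, and lost the call over the mean of its probe sets (0.45; adjusted p = 0.175). Fmr1, the fragile X protein, gave -0.67 ± 0.19 (adjusted p = 0.00906), and Cirbp, a cold-inducible RNA-binding protein, gave -0.73 ± 0.23 (adjusted p = 0.0145). Both lost the call without replicate 1 of E12.5 (-0.56 and -0.60; adjusted p = 0.0519 and 0.0765), and Cirbp also without body replicate 1 (-0.61; adjusted p = 0.052).

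Of 26 P-body and mRNA decay genes, 2 were higher and 6 lower, with a median of -0.20, a share lower that is near that of all genes. Zfp36l1, which binds AU-rich elements and recruits the decay machinery, averaged 8.81 ± 0.11 in E12.5 lens, against 11.43 ± 0.04 in body (-2.62 ± 0.18; adjusted p = 7.67e-10). Its relative Zfp36l2 went the other way (0.74 ± 0.22; adjusted p = 0.0104), a call lost over the mean of its probe sets (0.33; adjusted p = 0.0605). Cnot6, a deadenylase, was lower (-0.58 ± 0.12; adjusted p = 0.000629). Patl1, a decapping factor, was higher (0.59 ± 0.20; adjusted p = 0.0225) and lost the call without replicate 2 or 3 of E12.5 or body replicate 1 or 2 (0.40 to 0.56; adjusted p = 0.0534 to 0.0869).

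Of 25 double-stranded RNA-binding and transport genes, 3 were higher and 4 lower, with a median of 0.06. Cpeb1, which controls poly(A) tail length and translation of stored mRNA in oocytes and neurons, averaged 4.75 ± 0.99, 6.12 ± 0.53 and 7.77 ± 0.17 in lens over the 3 stages, against 3.85 ± 0.19 in body. Its differences were 0.91, 2.27 and 3.93 (adjusted p = 0.0336, 1.07e-05 and 5.39e-09), against a body level below background. The E10.5 call was lost without replicate 3 (0.33; adjusted p = 0.307). Kif5a, a neuronal kinesin, was lower (-2.26 ± 0.21; adjusted p = 3.61e-08), and so was Purg (-1.02 ± 0.17; adjusted p = 7.46e-05). Cpeb2 gave 1.62 ± 0.48 (adjusted p = 0.00934) and lost the call without replicate 2 or 3 of E12.5 (1.24 and 1.33; adjusted p = 0.0686 and 0.0601). In tooth germ 13 of the 25 were lower and none higher, where 25.3% of all genes were called lower.

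Of 32 tissue regulators of splicing and stability other than Celf1 and Rbm24, 24 were lower and 2 higher, with a median of -1.16. The largest falls were in Elavl4 (-4.05), Elavl2 (-3.65), Celf4 (-3.55) and Elavl3 (-3.45), all RNA-binding proteins of neurons. Celf4, a relative of Celf1, averaged 4.17 ± 0.25 in lens, below background, against 7.72 ± 0.31 in body. Elavl3 and Elavl4 also stand among the neuron markers, which were at or near background in lens. Elavl2 averaged 8.94, 7.23 and 6.16 in lens over the 3 stages, against 9.81 in body.

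Of 15 microRNA pathway genes tested, 1 was higher and 6 lower, with a median of -0.32. Tnrc6b, a partner of Argonaute in silencing, was higher at E12.5 (1.65 ± 0.18; adjusted p = 3.81e-07). Lin28a, which blocks let-7 maturation, changed side, with 9.22, 7.67 and 5.58 in lens over the 3 stages, against 7.10 in body. Lens minus body for Lin28a was 2.12 at E10.5 (adjusted p = 2.53e-06) and -1.53 at E12.5 (adjusted p = 8.64e-05), and E12.5 minus E10.5 was -3.64 ± 0.28 (adjusted p = 4.46e-08). Dgcr8 of the Microprocessor was lower (-0.60 ± 0.13; adjusted p = 0.000831). Tut4, a terminal uridylyltransferase, gave -0.86 ± 0.12 (adjusted p = 6.59e-06) in its main set and 0.21 over the mean of its sets (adjusted p = 0.132).

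**Figure D5:**
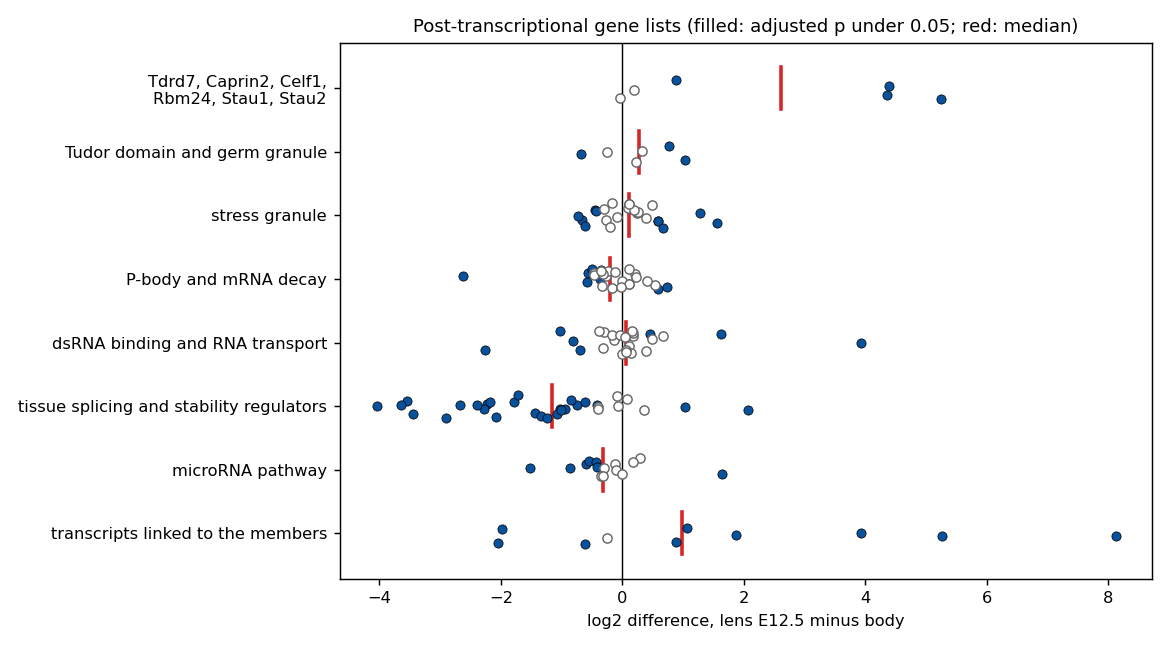
Log2 difference of lens E12.5 minus body (x axis) for each tested gene of the 6 members and of 7 lists (y axis). Filled points have an adjusted p under 0.05, open points do not, and red lines are medians. The list of tissue splicing and stability regulators has its median at -1.16, while the other regulator lists have medians between -0.32 and 0.27.

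Transcripts linked to these regulators by earlier work in mouse lens or eye formed the last list, with 6 of 10 tested genes higher and 3 lower at E12.5 (median 0.97). Of those linked to Tdrd7, the crystallin Crybb3 averaged 12.97, 13.77 and 14.50 in lens over the 3 stages, against 6.38 in body, and the receptor Epha2 was higher at each stage (1.63, 1.66 and 1.88). Hspb1, a small heat shock protein, went the other way (-2.05, -2.43 and -2.04), with 7.85 ± 0.25, 7.47 ± 0.15 and 7.85 in lens, against 9.90 in body. Sparc, a matrix protein, was higher by 0.40, 0.68 and 1.06 (adjusted p = 0.0361, 0.000723 and 4.29e-06), and the E10.5 call was lost without replicate 3 (0.42; adjusted p = 0.063).

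Of those linked to Celf1, the transcription factors Pax6 and Prox1 were higher by 3.93 and 5.26 at E12.5 and also serve as lens markers here. The cell cycle inhibitor Cdkn1b gave 0.89 ± 0.35 (adjusted p = 0.044), which was not past the threshold when replicate 2 or 3 of E12.5 or body replicate 1, 2 or 3 was left out (0.67 to 0.90; adjusted p = 0.0676 to 0.156). Cdkn1a gave -0.62 ± 0.23 (adjusted p = 0.0324) and lost the call without replicate 3 of E12.5 or body replicate 3 or 4 (-0.56 to -0.48; adjusted p = 0.0776 to 0.149), while it rose between stages (E12.5 minus E10.5, 1.04 ± 0.24; adjusted p = 0.00368). Dnase2b, the nuclease that degrades fibre cell nuclei later in development, did not pass the filter on low values and averaged 4.07 in E12.5 lens, against 3.88 in body.

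Sox2, whose mRNA Rbm24 stabilises in the eye, ran against Rbm24 in time. It averaged 10.71, 8.95 and 7.93 in lens over the 3 stages, against 9.91 in body. Lens minus body was 0.79 ± 0.25 at E10.5 (adjusted p = 0.017), -0.96 ± 0.25 at E11.5 (adjusted p = 0.00433) and -1.98 ± 0.25 at E12.5 (adjusted p = 1.78e-06). Over the lens period Sox2 fell by 2.77 and Rbm24 rose by 2.55. Lrp6, the receptor that Caprin2 binds, was not called at E12.5 (-0.25 ± 0.11; adjusted p = 0.0774).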

How the data were processed

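RNA of 19 samples was hybridised to Affymetrix mouse expression arrays of 45101 probe sets. The intensity values deposited by the authors are on a linear scale and were made with RMA, per the labels, with version 0.7 of a package named affy listed in the submitters' processing notes; the arrays' number limits the precision. Log2 was taken and no further normalization applied. Platform annotation named 1 gene for 34945 probe sets, several for 932 and none for 9160, and 64 were controls; 34741 matched RefSeq (GRCm38.p6) by Entrez ID.

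A gene was tested where its main probe set was above 44.1 (5.46 in log2, the median over all arrays) on 3 or more arrays. Tests were two-sided, with limma 3.58.1 in R 4.3.3, 1 mean per group over all 19 arrays and Benjamini-Hochberg adjustment over 13320 genes (threshold 0.05), and a second fit over the 34945 probe sets for members' other probe sets; the procedure was tested on simulated data. The probe set adjusted p-values come from that second fit. The 9 contrasts were lens minus body at each stage, the 3 pairs of lens stages, tooth germ minus body, the lens E12.5 difference minus the tooth difference, and the 2 bodies.

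The members and lists were chosen with earlier results of these data known, so list counts are descriptions. Named genes were the members, up to 4 called genes per list with the largest E12.5 difference, all linked transcripts and the 3 best-correlated genes per member; arrays and genes named as exceptions were chosen after their values were seen. Lists used current symbols (3 updated). Replicate numbers were not taken as pairs: over 18 pairs of same-numbered lens-series arrays, deviations from group means correlated from -0.53 to 0.64. No 2 arrays shared more than 2.04% of values exactly.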

Additional observations from a re-analysis of the deposited data

Results flagged for a closer look

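For 4 genes the difference between tissue and body was not the same in lens at E12.5 as in tooth germ, by limma's test of the difference between the differences. That value was 6.94 for Tdrd7, 4.41 for Caprin2, 1.36 for Celf1 and 7.36 for Rbm24, each higher in lens. Over all genes tested, 19.2% passed the threshold in that direction. The main probe sets of Tdrd7, Celf1 and Rbm24 lay lower in tooth germ than in its body, so part of their value comes from the tooth series, in which 2 other Celf1 sets were higher in tooth germ (0.69 and 0.74). The second Tdrd7 set and 2 other Rbm24 sets were below background in both groups of the tooth series. In place of the main set, other sets gave 1.83 for Tdrd7, 1.04 to 3.72 for Celf1 and 0.13 to 4.34 for Rbm24. The part of the 3′ minus 5′ controls, which differed between the series, was not tested. Among 19 groups of 4 lens-series body arrays, 1 per probe set, 0 held an array apart from the rest by Dixon's criterion. Chance alone would set apart about 1 in 20. Groups of 3 arrays, such as lens E10.5, were not part of this check.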

How the results depend on the processing

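The 4 lens calls against body at each stage kept their direction under every setting run for the main probe sets; Celf1 at E11.5 was not called within the high spike-in arrays (0.43; adjusted p = 0.207), where E11.5 has 1 array. The choice of probe set mattered most. Where either value was called, another set in place of the main one turned the sign for Tdrd7 in tooth germ (0.033) and between bodies (-0.094), Celf1 in tooth germ (0.74 and 0.69), Rbm24 in tooth germ (0.26 and 0.62) and between bodies (0.62), Stau1 in lens against tooth (-0.82) and between bodies (0.82), and Stau2 at E11.5 (-0.83 and -1.59), at E12.5 (-1.30), in lens against tooth (-1.39) and between bodies (-1.36). The second Tdrd7 set lay below background in these groups, so its sign gives no direction. In 20 further cases the sign turned with neither value called. Over the mean of a gene's sets it turned for Celf1 in tooth germ (0.044), Stau2 at E11.5 (-0.71), at E12.5 (-0.59) and in lens against tooth (-0.55), and Tut4 (0.21). Within the low spike-in arrays, Caprin2 at E11.5 minus E10.5 was -1.04. The cause was not tested.

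The number of the 6 genes called at E11.5 minus E10.5 was 1. It was 2 with the mean of probe sets, 0 when only the arrays compared were fitted, 2 with array weights and 0 to 3 when 1 array was left out. At E12.5 minus E11.5 it was 2, and 1 with only the arrays compared and 1 to 2 when 1 array was left out. For tooth germ it was 3, and 5 with array weights. In each count within a spike-in level given here, 1 or both stages have 1 array. Over all genes, calls at E11.5 minus E10.5 numbered 568, against 56 with only the arrays compared, 1809 with array weights, 1473 within the high and 122 within the low spike-in arrays; at E12.5 minus E11.5 they numbered 861, against 139, 2126 and, within the high arrays, 443. At E12.5 minus E10.5 they numbered 2946, against 1568 within the high and 1838 within the low arrays.

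Replicate numbers were not taken as pairs, and the labels do not say whether they are. With the replicate number as a block, 1 call of the 6 genes changed (Stau2, lens against tooth, 0.84; adjusted p = 0.0278). A block of spike-in level could not be fitted for tooth germ against body. Before centring, array medians over the genes tested were shifted from body by -0.13 at E11.5, -0.14 at E12.5 and -0.15 in tooth germ. The shift between bodies was -0.10, and centring removed these shifts. Centring also called Stau2 at E12.5 minus E10.5 (0.60) and in lens against tooth (0.68). Signals near background (Rbm24 in tooth germ, dim probe sets) can misstate the size of a difference, and this was not tested.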
